A study of Mus musculus with 24 samples.

Results

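The genes of the cytosolic heat shock proteins were followed in mouse macrophages that had been given interleukins and inhibitors of cell function. They are 9 genes taken by name, *Hsf1*, *Hspa1a*, *Hspa1b*, *Hspa8*, *Hsp90aa1*, *Hsp90ab1*, *Hsph1*, *Dnajb1* and *Bag3*, of 56884 genes in the count table, and all 9 were among the 13679 genes with enough reads to be tested. The RNA came from bone marrow–derived macrophages (BMDM), grown from marrow cells with the growth factor M-CSF, of 4 wild-type female C57BL/6J mice aged 9 weeks and numbered 1, 2, 4 and 5. Every mouse gave 1 library in each of 6 groups, 24 libraries in all. Naive macrophages received no stimulus for 24 hours, and the IL-4/IL-13 group received IL-4 and IL-13, each at 20 ng/ml, over the same time. The other 4 groups had both interleukins together with an inhibitor, which was also given for 1 hour beforehand. Tunicamycin, which blocks N-linked glycosylation in the endoplasmic reticulum (ER), was used at 5 µg/ml, and Sal003, a salubrinal derivative that keeps eIF2α phosphorylated, at 10 µM. Oligomycin, which blocks the mitochondrial ATP synthase, was used at 1 µM in 2 groups, and in 1 of them ISRIB, which counteracts the integrated stress response (ISR), was added at 1 µM. The labels conflict on which of the 2 that is, so they are called oligomycin set A (with ISRIB by title, without it by library name) and oligomycin set B (without ISRIB by title, with it by library name). No measured value was used to choose between the readings.

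Heat shock proteins are chaperones, which bind unfolded proteins, keep them from aggregating and help them to fold. In the cytosol, J-domain proteins such as DNAJB1 hand clients to HSP70, exchange factors such as HSPH1 and BAG3 release them, and some clients, among them many kinases and receptors, pass on to HSP90. The transcription factor HSF1 is held inactive by these chaperones and, when unfolded proteins draw them away, forms trimers that bind heat shock elements in the promoters of chaperone genes. *Hspa8* and *Hsp90ab1* are known as the constitutive genes of HSP70 and HSP90, and *Hspa1a*, *Hspa1b*, *Hsp90aa1*, *Hsph1*, *Dnajb1* and *Bag3* as genes that heat and misfolded proteins induce. The ER and the mitochondria have relatives of their own, controlled by the unfolded protein responses of those compartments.

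The promoters of *Hspa1a* and *Hspa1b* are shown because these neighboring genes made the largest moves of the 9. The sequences are from RefSeq and are given as the 250 bases upstream of the transcription start in GRCm39, placed there by an exact match, at chr17:35191133-35191382 for *Hspa1a* and chr17:35178215-35178464 for *Hspa1b*, both on the minus strand. Capitals mark a heat shock element of 2 inverted units, GAANNTTC.
Hspa1a: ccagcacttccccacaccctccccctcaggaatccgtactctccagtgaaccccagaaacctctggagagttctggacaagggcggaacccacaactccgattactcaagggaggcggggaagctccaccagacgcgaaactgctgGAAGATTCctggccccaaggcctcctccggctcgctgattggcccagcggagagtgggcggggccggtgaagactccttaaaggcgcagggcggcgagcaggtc
Hspa1b: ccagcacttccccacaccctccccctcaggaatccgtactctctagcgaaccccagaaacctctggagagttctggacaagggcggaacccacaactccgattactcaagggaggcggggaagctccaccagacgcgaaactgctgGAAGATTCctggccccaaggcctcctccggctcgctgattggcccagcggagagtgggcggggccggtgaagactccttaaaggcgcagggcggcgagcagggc
The 2 stretches differed at 3 of 250 bases (98.8% identity), and the element GAAGATTC lay 104 to 97 bases upstream of the start in both. The upstream bases of *Hsph1* held the other 2-unit form, TTCNNGAA, as TTCTCGAA at 33 to 26 bases upstream of the first of its 2 listed starts. Those of *Bag3* and *Dnajb1* held neither form, which says only that these letters are not in the 250 bases. Either form, each of which reads the same on both strands, was found in 12.8% of the 32851 upstream stretches in the table, and a longer element of 3 alternating units, which the upstream stretches of these 5 genes did not hold, in 0.466%. With the 50 bases after the start counted too, *Bag3* had 1 element of 2 units, and each window of *Hsph1* had 3 (overlapping matches counted) and also 1 of 3 units. *Hspa1a* and *Hspa1b* still had 1 each and *Dnajb1* none. In these longer windows 15.1% of the table held a 2-unit and 0.603% a 3-unit element. RefSeq windows were at hand for 5 of the 9 members.

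The libraries held 16238727 to 26725278 gene counts each (median 18999998), of which the 9 genes together took 0.154 to 0.241%. Markers of macrophages such as *Adgre1* and *Csf1r* were present in every group, with sums over 7 genes from 9107 to 36200 CPM (counts divided by library size, which was scaled by the TMM method), and erythroid markers were at or near 0. The sum of 7 markers of neutrophils and their precursors moved with the groups, from 40.7 to 76.7 CPM in naive, 24.1 to 44.4 with IL-4/IL-13, 0.103 to 0.286 with tunicamycin, 5.09 to 8.44 with Sal003, 2.73 to 4.71 in set A and 18.7 to 24.7 in set B. With tunicamycin 6 of the 7 markers had at most 3 counts in every library. The sum of 4 stromal markers ran from 11.4 to 77.5 CPM in naive, 8.62 to 46.7 with IL-4/IL-13 and 1.58 to 11.0 with tunicamycin, and the part of these cells in the results was not tested. In bulk RNA, fewer cells of a type and less RNA per cell cannot be told apart.

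Set side by side per transcript length as TPM, which was calculated from the counts, the 2 constitutive genes were the main ones in every group. *Hsp90ab1* had 773 ± 12.9 TPM (mean ± SD, n = 4) and *Hspa8* 721 ± 40.9 TPM in naive macrophages. *Bag3* followed with 59.3 ± 6.83 TPM and *Hsp90aa1* with 47.1 ± 5.23 TPM. *Dnajb1* had 29.0 ± 2.05, *Hsf1* 18.0 ± 1.5 and *Hsph1* 17.2 ± 1.64 TPM, and the inducible HSP70 genes came last, with 5.71 ± 0.682 TPM for *Hspa1b* and 4.38 ± 0.254 TPM for *Hspa1a*. With IL-4/IL-13 *Hsp90ab1* reached 1146 ± 21.8 TPM and *Hspa8* had 660 ± 5.19 TPM, and with tunicamycin the inducible pair was lowest of all, at 1.32 ± 0.111 TPM for *Hspa1a* and 1.33 ± 0.333 TPM for *Hspa1b*. Levels per length depend on how the counting treated shared sequence. Of the stretches of 75 bases in the transcript, 68% in *Hspa8*, 49.3% in *Hsp90aa1*, 61.7% in *Hspa1a* and 55.8% in *Hspa1b* occur in other genes too, on either strand. The share was 42.7% in *Hsf1*, mostly with *Dgat1*, 16.2% in *Bag3*, with 4921520J07Rik, and 7.84% in *Hsp90ab1*, mostly with *Slc35b2*. It was none in *Hsph1* and *Dnajb1*. *Dgat1*, 4921520J07Rik and *Slc35b2* each overlap their member on the opposite strand. There the shared sequence is the same stretch of the genome, read from both strands. The levels of all members but *Hsph1* and *Dnajb1* are uncertain, *Hsf1* included. The study lists reads longer than 75 bases, so the shares do not measure by how much.

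**Figure D1:**
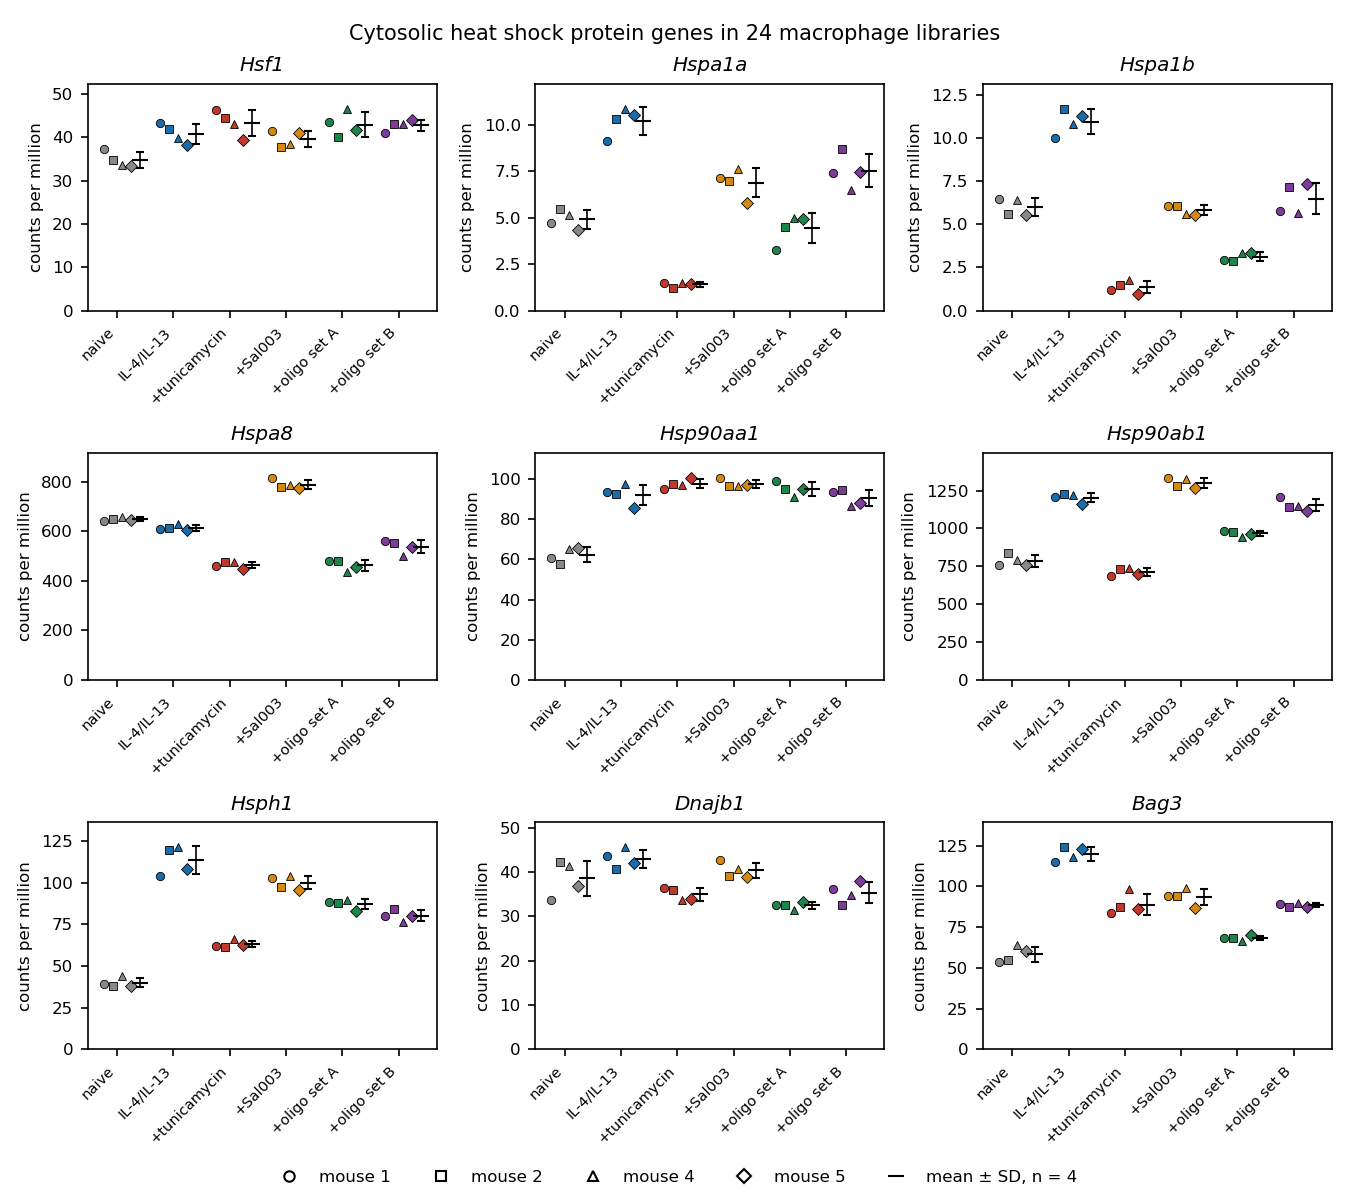
Each panel plots 1 gene, with the TMM-scaled CPM of every library on a linear axis from 0, the 6 groups along the horizontal axis, a symbol for each mouse and the mean ± SD of the 4 libraries as a bar at the right. *Hspa1a* and *Hspa1b* drop to between 0.968 and 1.76 CPM with tunicamycin, while *Hsf1* stays between 33.2 and 46.6 CPM in all libraries.

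The first comparison asks what IL-4/IL-13 did to the chaperone genes of unstressed cells. With IL-4/IL-13, 8 of the 9 genes rose against naive macrophages and none fell, by an adjusted p under 0.05 (quasi-likelihood test of edgeR, Benjamini-Hochberg adjusted over all genes tested). Among all genes tested 30.1% rose and 30.4% fell. The median log2 fold change of the 9 genes was 0.61, beside -0.02 over all genes. Only *Hsph1* passed 2.5-fold, the second threshold, which 5.39% of all genes passed upward.

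*Hsph1* (ENSMUSG00000029657, chromosome 5, 149537636 to 149560156) encodes HSP110, the exchange factor of HSP70. It had 39.1, 38.3, 43.9 and 38.3 CPM in naive libraries of mice 1, 2, 4 and 5 and 104, 120, 121 and 108 CPM with IL-4/IL-13. Every stimulated library stood above every naive one. The change was 2.84-fold (log2 1.51, standard error 0.05, adjusted p = 9.5e-18).

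*Bag3* (ENSMUSG00000030847, chromosome 7, 128125283 to 128148705) encodes the co-chaperone that sends HSP70 clients to autophagy. It had 53.7, 54.8, 63.9 and 60.5 CPM in naive macrophages and 115, 124, 118 and 123 CPM with IL-4/IL-13, with no overlap. That was a rise of 2.06-fold (log2 1.04, standard error 0.06, adjusted p = 2.1e-14). On the opposite strand 18.6% of its exon bases are overlapped by 4921520J07Rik, and whether reads were counted by strand is not given in the sources used here.

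The inducible HSP70 genes lie side by side, *Hspa1a* (ENSMUSG00000091971) on chromosome 17 from 35188166 to 35191132 and *Hspa1b* (ENSMUSG00000090877) from 35175412 to 35178214. *Hspa1a* had 4.69, 5.46, 5.15 and 4.32 CPM in naive macrophages and 9.14, 10.3, 10.9 and 10.5 CPM with IL-4/IL-13. *Hspa1b* had 6.44, 5.57, 6.44 and 5.57 CPM before and 10.0, 11.7, 10.8 and 11.3 CPM after. The groups did not overlap for either gene. *Hspa1a* rose 2.08-fold (adjusted p = 2.3e-08) and *Hspa1b* 1.82-fold (adjusted p = 1.4e-07). These values rest on 87 to 232 counts per library. On the opposite strand 19% of the exon bases of *Hspa1a* are overlapped by Gm20481, which was also counted, and none of those of *Hspa1b* are overlapped. Because a read from the shared stretches of the transcripts may have been dropped or given to either gene, the sum of the 2 was also tested, and it rose 1.94-fold (adjusted p = 2.0e-09).

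Both HSP90 genes rose. *Hsp90ab1* (ENSMUSG00000023944, chromosome 17, 45878552 to 45891949) had 756, 841, 793 and 756 CPM in naive and 1205, 1225, 1219 and 1160 CPM with IL-4/IL-13, a rise of 1.53-fold (adjusted p = 2.3e-12). *Hsp90aa1* (ENSMUSG00000021270, chromosome 12, 110656842 to 110669166) had 60.8, 57.7, 65.1 and 65.8 CPM in naive and 93.6, 92.7, 97.4 and 85.5 CPM with IL-4/IL-13, a rise of 1.48-fold (adjusted p = 1.2e-10). The stimulated libraries were higher than all naive libraries for both.

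*Hsf1* (ENSMUSG00000022556, chromosome 15, 76361558 to 76388138), the factor itself, moved little, from 37.3, 34.7, 33.6 and 33.2 CPM to 43.2, 41.8, 39.7 and 38.1 CPM. The 2 groups did not overlap, and the rise of 1.17-fold passed the test (adjusted p = 0.0012). Its counts are uncertain, because 55.4% of its exon bases are overlapped on the opposite strand by *Bop1* and *Dgat1*. *Dnajb1* (ENSMUSG00000005483, chromosome 8, 84334811 to 84339820), the J-domain partner of HSP70, had 33.8, 42.4, 41.4 and 36.9 CPM in naive and 43.7, 40.8, 45.6 and 42.1 CPM with IL-4/IL-13. The groups overlapped and mouse 2 went down, so its rise of 1.12-fold (adjusted p = 0.0279) was the least secure of the 8. It was lost without mouse 1 (adjusted p = 0.221), mouse 4 (adjusted p = 0.0695) or mouse 5 (adjusted p = 0.0841), without any 1 of 4 single libraries (adjusted p = 0.057 to 0.154), with upper-quartile normalization (adjusted p = 0.0524) and with a fit of the 2 groups alone (adjusted p = 0.113).

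*Hspa8* (ENSMUSG00000015656, chromosome 9, 40711630 to 40731039), which encodes the constitutive HSC70, was the gene that did not rise. It had 640, 651, 657 and 647 CPM in naive and 608, 615, 629 and 604 CPM with IL-4/IL-13. All 4 mice were lower with the interleukins and the groups did not overlap, but the log2 fold change of -0.08 missed the threshold (standard error 0.04, adjusted p = 0.0912). With upper-quartile normalization the change passed as a fall (log2 -0.10, adjusted p = 0.0411).

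**Figure D2:**
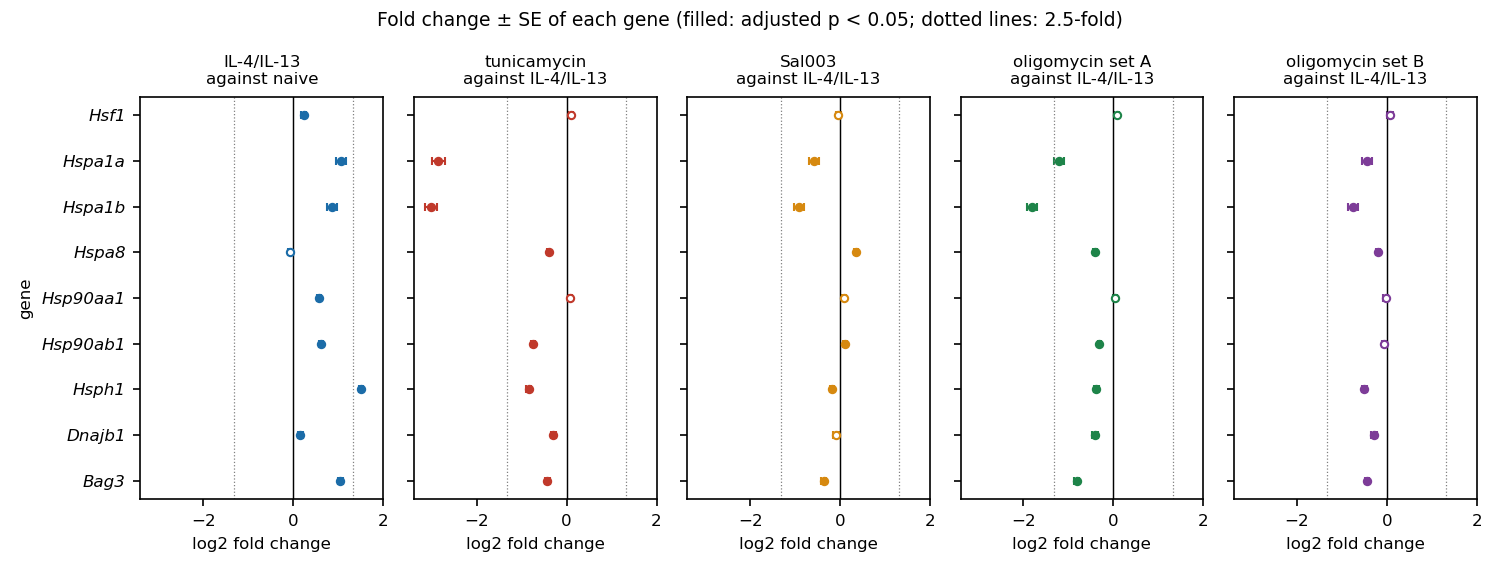
Each panel plots 1 comparison, with the log2 fold change of each gene on the horizontal axis, bars for the standard error, filled points for an adjusted p under 0.05 and dotted lines at 2.5-fold. In the first panel 8 points are filled and right of 0, and in the tunicamycin panel 7 are filled and left of 0, with *Hspa1a* and *Hspa1b* beyond the dotted line.

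The next comparison sets cells under ER stress against cells with IL-4/IL-13 alone. With tunicamycin 7 of the 9 genes fell and none rose, where 37.6% of all genes fell and 38.7% rose. The median log2 fold change of the 9 was -0.44, beside 0.01 over all genes. The largest falls were those of the inducible HSP70 genes, the 2 members past 2.5-fold, which 14.0% of all genes passed downward. *Hsp90aa1* and *Hsf1* did not pass the test in either direction.

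*Hspa1a* dropped to 1.49, 1.24, 1.48 and 1.43 CPM in mice 1, 2, 4 and 5, and *Hspa1b* to 1.18, 1.48, 1.76 and 0.968 CPM. All 8 values lay below the lowest of any other group. The level of *Hspa1a* was 7.24-fold lower than with IL-4/IL-13 alone (log2 -2.86, standard error 0.14, adjusted p = 1.5e-15) and that of *Hspa1b* 8.14-fold lower (log2 -3.03, standard error 0.13, adjusted p = 1.2e-16). The sum of the 2 was 7.69-fold lower (adjusted p = 5.2e-18). These levels rest on 19 to 31 counts per library, and the SD over the 4 mice was 8.25% of the mean for *Hspa1a* and 25.6% for *Hspa1b*.

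*Hsph1* fell to 62.2, 61.6, 66.0 and 62.8 CPM, 1.8-fold below IL-4/IL-13 alone (adjusted p = 1.6e-13). *Hsp90ab1* fell to 683, 730, 740 and 701 CPM, 1.69-fold lower (adjusted p = 1.3e-14). Both sets of libraries lay wholly below those with IL-4/IL-13 alone. *Bag3* fell 1.35-fold to 83.5, 87.1, 98.6 and 86.2 CPM (adjusted p = 8.3e-08). *Hspa8* fell 1.32-fold to 460, 475, 474 and 449 CPM (adjusted p = 2.2e-09), and *Dnajb1* 1.23-fold to 36.4, 36.0, 33.6 and 33.9 CPM (adjusted p = 1.1e-04). For these 3 genes too, every tunicamycin library was below every library with IL-4/IL-13 alone.

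*Hsp90aa1* had 95.1, 97.8, 97.1 and 101 CPM with tunicamycin, and its ratio to IL-4/IL-13 alone was 1.06 with a 95% interval from 0.992 to 1.13 (adjusted p = 0.116). *Hsf1* had 46.3, 44.4, 43.0 and 39.3 CPM, with a ratio of 1.06 and an interval from 0.982 to 1.15 (adjusted p = 0.167). For both genes the groups overlapped. *Hsp90aa1* passed the test without the IL-4/IL-13 library of mouse 4 (log2 0.11, adjusted p = 0.0496), and *Hsf1* without the tunicamycin library of mouse 5 (log2 0.13, adjusted p = 0.0413).

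Set against naive macrophages, the tunicamycin group had both higher and lower levels. *Hspa1a* was 3.48-fold (adjusted p = 6.3e-11) and *Hspa1b* 4.47-fold lower than in naive cells (adjusted p = 3.6e-13), and *Hspa8* 1.40-fold lower (adjusted p = 7.5e-11). *Hsp90aa1*, *Hsph1* and *Bag3* were higher than in naive cells, by 1.57-fold, 1.58-fold and 1.53-fold (adjusted p = 4.1e-12, 4.2e-11 and 3.1e-10), as was *Hsf1* by 1.25-fold (adjusted p = 2.0e-05). *Hsp90ab1* and *Dnajb1* were each 1.10-fold lower (adjusted p = 0.00332 and 0.0406). Both were lost in a fit of the 2 groups alone (adjusted p = 0.069 and 0.171), and without the naive library of mouse 2 (adjusted p = 0.136 and 0.45). *Hsp90ab1* was also lost without mouse 1 or 5 (adjusted p = 0.0828 and 0.0749) and with no filter on low counts (adjusted p = 0.408). *Dnajb1* was also lost without mouse 2, 4 or 5 (adjusted p = 0.138, 0.309 and 0.225), with DESeq2 (adjusted p = 0.0564) and with the mouse as a replicate block (adjusted p = 0.0514). The same held with no filter on low counts (adjusted p = 0.459) and without the naive library of mouse 4 (adjusted p = 0.149). It held too without the tunicamycin library of mouse 4 or 5 (adjusted p = 0.113 and 0.108). In this comparison 4 of the 9 genes rose and 5 fell, where 37.1% of all genes rose and 40.5% fell. It shares the tunicamycin libraries with the one above.

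With Sal003 the calls went both ways. Against IL-4/IL-13 alone 2 of the 9 rose and 4 fell, where 25.9% of all genes rose and 24.6% fell, so the rises were near the share over all genes. The median log2 fold change was -0.09, beside 0.00 over all genes. *Hspa8* rose and, less securely, *Hsp90ab1*. The inducible HSP70 genes, *Bag3* and *Hsph1* fell, while the inducible *Hsp90aa1* and *Dnajb1* did not pass the test. None of the 9 passed 2.5-fold.

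*Hspa8* had its highest level here, with 815, 779, 786 and 775 CPM, 1.29-fold above IL-4/IL-13 alone (log2 0.36, standard error 0.04, adjusted p = 4.4e-08), and it was higher than in every library of the other groups. *Hsp90ab1* had 1332, 1281, 1326 and 1266 CPM, all above the libraries with IL-4/IL-13 alone, and rose 1.08-fold (adjusted p = 0.0221). That small rise did not hold with upper-quartile (adjusted p = 0.129) or RLE normalization (adjusted p = 0.0565), with no filter on low counts (adjusted p = 0.139), with a stricter one (adjusted p = 0.0574) or in a fit of the 2 groups alone (adjusted p = 0.0528). It was also lost without mouse 1 (adjusted p = 0.153), mouse 4 (adjusted p = 0.0721) or mouse 5 (adjusted p = 0.137), and without any 1 of 3 single libraries (adjusted p = 0.0633 to 0.121).

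*Hspa1b* fell 1.88-fold to 6.07, 6.09, 5.61 and 5.56 CPM (adjusted p = 1.2e-07) and *Hspa1a* 1.49-fold to 7.11, 6.99, 7.59 and 5.77 CPM (adjusted p = 1.6e-04), in both cases with no overlap with IL-4/IL-13 alone. Their sum fell 1.67-fold (adjusted p = 2.4e-07). *Bag3* fell 1.28-fold to 94.2, 94.0, 99.1 and 86.8 CPM (adjusted p = 4.3e-06). *Hsph1* fell 1.14-fold to 103, 97.2, 104 and 95.8 CPM (adjusted p = 0.00434), and its highest Sal003 library, at 104 CPM, came close to the lowest with IL-4/IL-13 alone, which also had 104 CPM. Without mouse 2 that fall missed the threshold (adjusted p = 0.0512). *Hsf1*, *Hsp90aa1* and *Dnajb1* did not pass the test (adjusted p = 0.6, 0.154 and 0.223) and had ratios of 0.973, 1.06 and 0.939.

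In oligomycin set A 7 of the 9 genes fell and none rose against IL-4/IL-13 alone, where 32.2% of all genes fell and 34.0% rose. The median log2 fold change was -0.41, beside 0.01 over all genes. *Hspa1b* fell most and was the member past 2.5-fold, which 7.96% of all genes passed downward. *Hsf1* and *Hsp90aa1* were again the 2 genes that did not pass the test (adjusted p = 0.253 and 0.43).

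*Hspa1b* had 2.94, 2.87, 3.35 and 3.35 CPM in set A, 3.51-fold below IL-4/IL-13 alone (log2 -1.81, standard error 0.12, adjusted p = 6.5e-13). *Hspa1a* had 3.27, 4.52, 4.98 and 4.95 CPM, 2.31-fold lower (adjusted p = 2.1e-09). The sum of the 2, which does not depend on how reads were split between them, was 2.80-fold lower (adjusted p = 7.3e-13), past 2.5-fold. *Bag3* fell 1.76-fold to 68.2, 68.1, 66.6 and 70.0 CPM (adjusted p = 1.7e-12), the lowest level of this gene in a stimulated group. Every set A library was below every library with IL-4/IL-13 alone for these 3 genes. *Hspa8* fell 1.33-fold to 481, 481, 436 and 454 CPM (adjusted p = 2.8e-09) and *Dnajb1* 1.32-fold to 32.7, 32.6, 31.5 and 33.3 CPM (adjusted p = 2.5e-06). *Hsph1* fell 1.30-fold to 88.5, 87.8, 89.4 and 83.2 CPM (adjusted p = 5.2e-07), and *Hsp90ab1* 1.24-fold to 984, 978, 947 and 966 CPM (adjusted p = 2.9e-07). These 4 did not overlap with the interleukin group either.

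In oligomycin set B 6 of the 9 fell and none rose, where 26.4% of all genes fell and 27.9% rose, with a median log2 fold change of -0.28, beside 0.00 over all genes. *Hspa1b* fell 1.68-fold to 5.80, 7.16, 5.65 and 7.36 CPM (adjusted p = 1.7e-06) and *Hspa1a* 1.35-fold to 7.42, 8.71, 6.50 and 7.47 CPM (adjusted p = 0.00189). Their sum fell 1.51-fold (adjusted p = 4.7e-06). *Hsph1* fell 1.41-fold to 80.1, 84.2, 76.6 and 79.8 CPM (adjusted p = 1.0e-08), and *Bag3* 1.36-fold to 89.4, 87.4, 89.8 and 87.4 CPM (adjusted p = 1.8e-07). *Dnajb1* and *Hspa8* fell 1.21-fold and 1.14-fold (adjusted p = 3.9e-04 and 2.7e-04). All 6 had set B libraries below every library with IL-4/IL-13 alone. *Hsp90ab1*, with 1210, 1141, 1148 and 1116 CPM, overlapped with it and did not pass the test (ratio 0.960, adjusted p = 0.23), except as a fall with upper-quartile normalization (adjusted p = 0.0307). *Hsp90aa1* and *Hsf1* had ratios of 0.982 and 1.05 (adjusted p = 0.656 and 0.303).

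The 2 oligomycin groups, which differ by ISRIB in a direction the labels leave unclear, were then compared with each other. In set A 5 of the 9 genes were lower than in set B and none was higher by the test, where 21.3% of all genes were lower and 19.9% higher. *Hspa1b* was 2.09-fold lower in set A (adjusted p = 8.5e-08) and *Hspa1a* 1.70-fold lower (adjusted p = 1.2e-05). Their sum was 1.86-fold lower (adjusted p = 4.8e-08). *Bag3* was 1.30-fold lower (adjusted p = 4.5e-06), *Hsp90ab1* 1.19-fold lower (adjusted p = 1.9e-05) and *Hspa8* 1.16-fold lower (adjusted p = 1.2e-04). The libraries of the 2 sets did not overlap for any of these 5. *Hsph1* went the other way, with 4 of 4 mice higher in set A but overlapping libraries (log2 0.12, adjusted p = 0.0645), and it passed the test with the mouse as a replicate block (log2 0.12, adjusted p = 0.0438), with upper-quartile normalization (adjusted p = 0.0111), in a fit of the 2 groups alone (adjusted p = 0.0217) and without the set A library of mouse 5 (adjusted p = 0.0456) or the set B library of mouse 2 (adjusted p = 0.0428). *Dnajb1*, *Hsp90aa1* and *Hsf1* had ratios of 0.917, 1.05 and 1.00 (adjusted p = 0.11, 0.25 and 0.972), and *Hsp90aa1* passed with upper-quartile normalization (adjusted p = 0.0492).

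The inhibitors also differed among themselves. Tunicamycin held *Hspa1a* 4.87-fold and *Hspa1b* 4.34-fold below Sal003 (adjusted p = 3.5e-13 and 6.9e-13), and 3.14-fold and 2.32-fold below set A (adjusted p = 6.3e-10 and 1.0e-07). Against Sal003 6 of the 9 genes were lower with tunicamycin and none higher, where 36.0% of all genes were lower and 35.9% higher. The 6 included *Hspa8* at 1.70-fold and *Hsp90ab1* at 1.82-fold (adjusted p = 9.6e-15 and 9.3e-16). *Hsf1* was at the threshold in this comparison (log2 0.13, adjusted p = 0.0504). It passed as higher with tunicamycin in 8 of 19 alternatives, among them the replicate block (adjusted p = 0.0442) and the fit without mouse 5 (adjusted p = 0.00596). Against set A 4 were lower, *Hspa1a*, *Hspa1b*, *Hsph1* and *Hsp90ab1*, and 1 was higher, *Bag3* at 1.30-fold (adjusted p = 1.4e-06), where 32.1% of all genes were lower and 31.4% higher. *Hspa8* stood at 465 ± 12.3 CPM with tunicamycin and 463 ± 22.0 CPM in set A and did not pass the test (ratio 1.00, 95% interval 0.949 to 1.06, adjusted p = 0.917).

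The order of the groups differed by gene. *Hspa1b* ran from IL-4/IL-13 (11.0 ± 0.720 CPM) over set B (6.49 ± 0.891), naive (6.00 ± 0.502), Sal003 (5.83 ± 0.289) and set A (3.13 ± 0.260) to tunicamycin (1.35 ± 0.345), and in that order set B and naive, and naive and Sal003, overlapped and did not pass the test (adjusted p = 0.362 and 0.76). *Hspa1a* had the same 2 ends, with 2 pairs of overlapping neighbors that did not pass the test, set B and Sal003 (adjusted p = 0.481) and naive and set A (adjusted p = 0.297). *Hsph1* was highest with IL-4/IL-13 and lowest in naive cells, and of its neighboring groups only set A and set B overlapped. Between neighbors in the order *Hsp90aa1* had a single step, from naive cells at 62.3 ± 3.81 CPM to the 5 stimulated groups, whose means ran from 90.7 to 97.6 CPM. The stimulated groups were not all at 1 level. Set B, with 86.5 to 94.4 CPM, lay wholly below tunicamycin (95.1 to 101 CPM) and Sal003 (96.4 to 100 CPM), which are not its neighbors. For *Hsf1* the only step between neighbors was that between naive cells and Sal003 (adjusted p = 0.00553).

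The ratios between members within a library, taken per transcript length, also differed between the groups. They were chosen after the levels had been seen and are given as a description. *Hsp90ab1* was 16.5 times *Hsp90aa1* in naive cells, 17.0 times with IL-4/IL-13 and 17.4 times with Sal003, but 13.3 times in set A and 9.54 times with tunicamycin. *Hspa8* was 65.7 times *Hspa1b* with IL-4/IL-13, 127 times in naive cells and 415 times with tunicamycin. *Hspa8* was 42.1 times *Hsph1* in naive cells and 13.7 to 20.4 times in the 5 stimulated groups. *Hspa8* and *Hsp90ab1* were near each other in naive cells, where *Hsp90ab1* was 1.07 times *Hspa8*, and farther apart with IL-4/IL-13 at 1.74 times and in set B at 1.90 times.

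**Figure D3:**
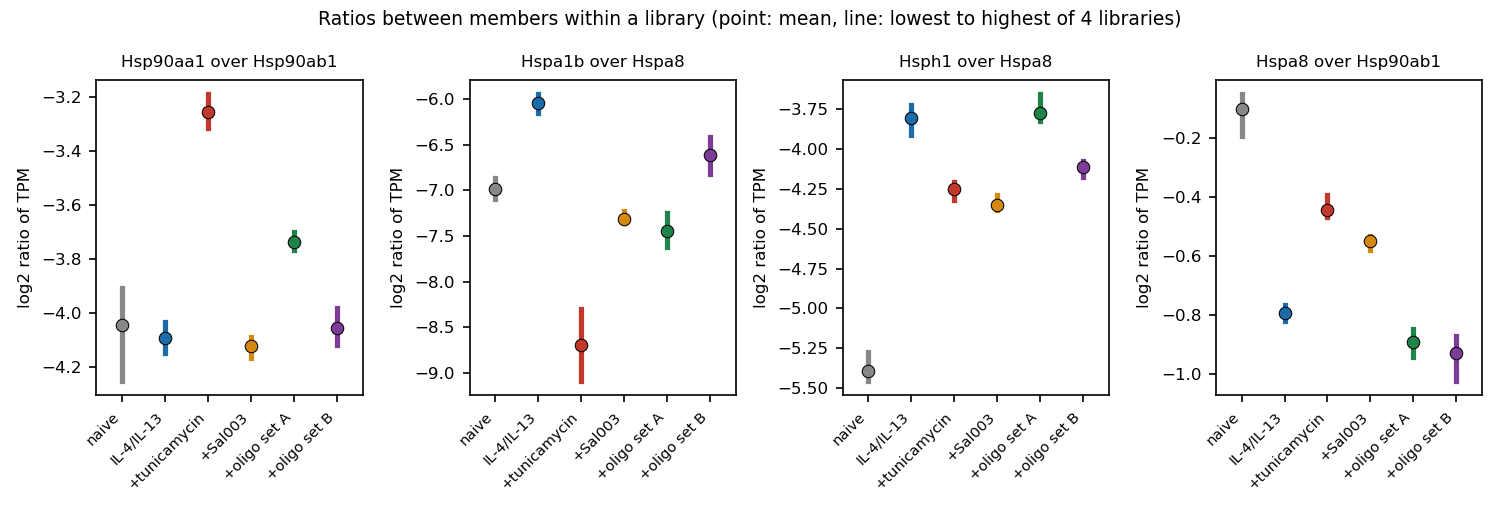
Each panel plots the log2 ratio of TPM of 2 members within a library, as the mean (point) and the lowest to highest value (line) of 4 libraries in each of the 6 groups. *Hsp90aa1* over *Hsp90ab1* is highest with tunicamycin, at -3.25, and lies between -4.12 and -3.73 in the other groups, while *Hspa1b* over *Hspa8* is lowest there, at -8.70.

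Other chaperones, mostly of the cytosol, were taken from lists of named genes, whose call rates are to be read beside the percentages given above. One list holds 13 further HSP40 genes outside the ER and mitochondria, not all of them cytosolic. Of these 5 rose and 6 fell with IL-4/IL-13, and 8 rose and 3 fell with tunicamycin, where the 9 members had 0 rises. Among those with at least 50 counts, the largest changes with IL-4/IL-13 were the rises of *Dnajc2* from 28.8 to 44.1 CPM and *Dnajc9* from 17.6 to 26.8 CPM (both log2 0.61, adjusted p = 6.0e-10 and 1.5e-08) and the fall of *Dnajb2* from 14.2 to 9.72 CPM (log2 -0.54, adjusted p = 2.8e-06). *Dnajc21*, a ribosome biogenesis factor, went from 13.3 to 61.1 CPM with tunicamycin (log2 2.20, adjusted p = 1.8e-20) and to 39.2 CPM in set A (log2 1.56, adjusted p = 8.3e-17). *Dnajb2* rose from 9.72 to 30.4 CPM with tunicamycin and 25.6 CPM in set A. *Dnaja1*, which like *Dnajb1* serves cytosolic HSP70, had 63.4 ± 3.26 CPM in naive cells, 84.5 ± 3.97 with IL-4/IL-13 and 71.0 ± 3.36 with tunicamycin.

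Of 8 further genes of the HSP70 and HSP110 family 7 could be tested. With IL-4/IL-13 3 rose and 1 fell. The one that fell, *Hspa2*, known for its role in spermatogenesis, changed most of those with at least 50 counts, from 10.0 ± 0.897 to 5.00 ± 0.780 CPM (log2 -1.01, adjusted p = 1.5e-09), with all 4 mice lower and no overlap. With tunicamycin, where 2 rose and 3 fell, it rose to 6.71 ± 0.445 CPM (log2 0.43, adjusted p = 3.7e-04). *Hspa4*, a second HSP110, went from 179 ± 8.60 to 268 ± 9.22 CPM (log2 0.58, adjusted p = 2.3e-12) and with tunicamycin to 222 ± 4.82 CPM (log2 -0.27, adjusted p = 6.9e-07). *Hspa4l* had 32.6 ± 1.89 CPM with IL-4/IL-13 and 57.2 ± 1.17 CPM in set A (log2 0.81, adjusted p = 6.3e-08). *Hspa13*, which despite its family sits in microsomes, rose from 32.3 to 230 CPM with tunicamycin (log2 2.83, adjusted p = 4.6e-20) and to 62.9 CPM in set A (log2 0.96, adjusted p = 2.3e-10).

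Among 9 BAG proteins and other partners of HSP70, 5 rose and none fell with IL-4/IL-13. *Stip1*, the adaptor between HSP70 and HSP90, went from 63.2 ± 5.51 to 91.6 ± 5.09 CPM (log2 0.54, adjusted p = 1.2e-08) and had 93.8 ± 5.10 CPM with tunicamycin. With tunicamycin 3 of the 9 rose and 2 fell, with *Bag5* from 29.4 to 43.9 CPM (log2 0.58, adjusted p = 4.4e-09) and *Bag4* from 25.9 to 18.6 CPM (log2 -0.48, adjusted p = 5.1e-09). Of 14 co-chaperones of HSP90 4 rose and 4 fell with IL-4/IL-13, and 9 rose and 3 fell with tunicamycin. *Fkbp5*, a co-chaperone of steroid receptors, moved as the inducible HSP70 genes did in direction, from 6.84 CPM in naive cells to 44.3 with IL-4/IL-13 (log2 2.7, adjusted p = 2.8e-16) and 9.87 with tunicamycin (log2 -2.17, adjusted p = 2.6e-15). *Cacybp* rose from 44.4 to 85.9 CPM with tunicamycin (log2 0.95, adjusted p = 2.1e-16).

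The TRiC chaperonin and its partner prefoldin, which fold actin and tubulin, had 9 of 14 genes that rose with IL-4/IL-13 and none that fell, and 10 that rose and 1 that fell with tunicamycin. *Cct3*, a subunit of TRiC, rose from 91.0 to 133 CPM with IL-4/IL-13 (log2 0.55, adjusted p = 1.8e-09), and *Pfdn5* was the one that fell with tunicamycin, from 118 to 67.9 CPM (log2 -0.80, adjusted p = 1.9e-08). Their median log2 fold change with tunicamycin was 0.39. Of 9 small heat shock proteins only *Hspb6* and *Cryab* could be tested. *Hspb6* fell from 5.33 to 3.70 CPM with IL-4/IL-13 (log2 -0.52, adjusted p = 0.00137) and rose to 4.75 CPM with tunicamycin (log2 0.36, adjusted p = 0.0186). *Hspb1*, a gene that heat is known to induce, had 0.743 ± 0.632 CPM in naive cells and 0.0632 ± 0.0649 CPM with tunicamycin. Of 5 genes of the HSF family and its binding protein, 4 were tested, *Hsf1* among them. With IL-4/IL-13 2 rose and 1 fell, and the largest change was the fall of *Hsf4* from 5.74 ± 0.754 to 2.42 ± 0.626 CPM (2.38-fold, log2 -1.25, adjusted p = 2.6e-07), with all 4 mice lower and no overlap. *Hsf2* rose from 19.9 to 24.6 CPM (log2 0.31, adjusted p = 2.9e-04). With tunicamycin none rose and 2 fell. *Hsf2* went to 22.1 CPM (log2 -0.16, adjusted p = 0.0345), and *Hsbp1*, whose product binds HSF1, fell from 108 to 89.5 CPM with tunicamycin (log2 -0.27, adjusted p = 4.8e-04). Of 14 tested genes known as further HSF1 targets, 6 rose and 3 fell with IL-4/IL-13, 6 rose and 4 fell with tunicamycin, and 8 rose and 1 fell with Sal003, among them *Ahsa1*, the activator of the HSP90 ATPase, from 95.1 to 166 CPM (log2 0.81, adjusted p = 9.3e-10). With IL-4/IL-13 *Hspd1*, the mitochondrial HSP60, changed most of these targets with at least 50 counts, from 75.5 to 133 CPM (log2 0.82, adjusted p = 7.1e-15). *Ahsa1*, also on the list of HSP90 co-chaperones, was one of the 3 targets that fell, from 131 to 95.1 CPM (log2 -0.46, adjusted p = 4.8e-06). Most of these targets, *Ahsa1* and *Hspd1* included, are counted on the other lists too, so the counts are not of separate genes.

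With IL-4/IL-13 the relatives in the other compartments mostly rose, as the members did. In the ER 6 of 8 rose and none fell, with a median log2 fold change of 0.48, and in mitochondria 6 of 7 rose and 1 fell, with a median of 0.72, beside 0.61 for the 9 members. The largest of these changes were those of *Sdf2l1*, an ER protein, from 85.5 to 217 CPM (log2 1.34, adjusted p = 7.2e-14), and of *Trap1*, the mitochondrial HSP90, from 48.0 to 85.7 CPM (log2 0.84, adjusted p = 2.8e-15). *Hscb*, a J-domain protein of iron-sulfur cluster assembly, was the one that fell (log2 -0.78, adjusted p = 5.4e-09).

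The relatives in the ER moved against the members with tunicamycin. All 8 rose and 7 of them passed 2.5-fold, which 8.56% of all genes passed upward, with a median log2 fold change of 2.58, beside -0.44 for the 9 cytosolic genes. *Hyou1*, the HSP110 of the ER, changed most, from 175 to 2287 CPM (log2 3.71, adjusted p = 3.4e-24). *Hspa5*, the HSP70 of the ER, went from 1073 ± 92.6 to 12370 ± 782 CPM, and *Hsp90b1*, its HSP90, from 967 ± 74.0 to 5031 ± 312 CPM. In set A, by contrast, 3 of the 8 rose and 4 fell, and *Sdf2l1* went from 217 to 45.4 CPM (log2 -2.26, adjusted p = 5.1e-18).

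The relatives in mitochondria rose with both tunicamycin (6 of 7, median log2 fold change 0.64) and set A (5 of 7, median 0.87), with 1 fall in each. With Sal003 5 of 7 rose and none fell (median 0.21), and in set B 4 of 7 (median 0.19). *Hspa9*, the HSP70 of the matrix, had 230 ± 7.19 CPM with IL-4/IL-13, 1063 ± 13.0 with tunicamycin, 1023 ± 16.4 in set A, 589 ± 37.6 in set B and 351 ± 21.9 with Sal003. *Hspd1*, the matrix HSP60, had 133 ± 6.66, 245 ± 4.50, 244 ± 5.84, 152 ± 6.29 and 153 ± 3.90 CPM in the same order, and its partner *Hspe1* had 44.4 ± 0.752, 57.7 ± 2.41, 55.3 ± 4.03, 50.8 ± 4.23 and 51.4 ± 2.68 CPM. All comparisons with an inhibitor share the libraries with IL-4/IL-13 alone.

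**Figure D4:**
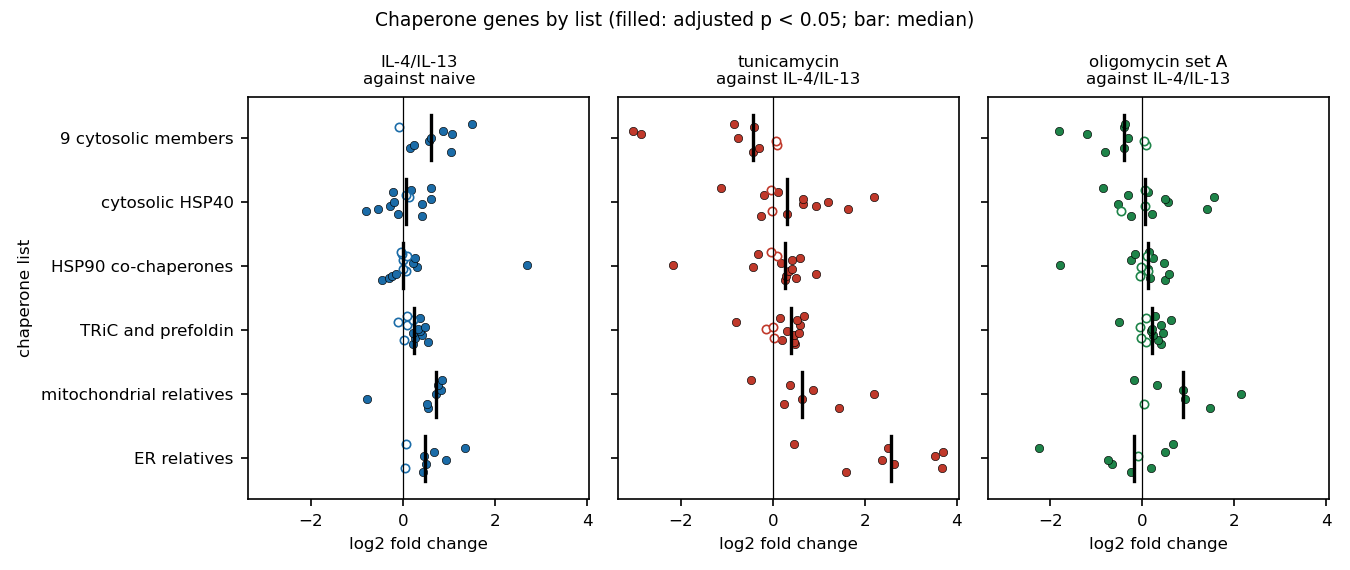
Each panel plots 1 comparison, with a point for the log2 fold change of each tested gene in 6 lists, filled where the adjusted p was under 0.05, and a bar at the median of the list. In the tunicamycin panel the median is -0.44 for the 9 cytosolic members, 0.64 for the mitochondrial relatives and 2.58 for the ER relatives.

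Over the 24 libraries the log2 CPM of each member was set beside that of other genes, and among the 3 nearest of each member *Hspa4* was the only gene of the chaperone lists. Of 10589 genes with a mean of at least 50 counts, the nearest to *Hspa1a* was *Irf5* (Pearson r = 0.98), an interferon regulatory factor, and the nearest to *Hspa1b* was *Ganc* (r = 0.98), an alpha-glucosidase. The nearest to *Hsph1* was its relative *Hspa4* (r = 0.97), and to *Hsp90ab1* it was *Oxct1* (r = 0.98), an enzyme of ketone body use. The nearest to *Hsf1* was *Lyar* (r = 0.85). The libraries fall into 6 groups of 4 mice, so these values mostly describe the group means.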

How the data were processed

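RNA-seq libraries of BMDM from 4 mice in 6 groups were used. The authors trimmed the reads, filtered out ribosomal and low-complexity ones, mapped what was left to GRCm39 and counted it by gene, and the deposited values are raw counts. Their tools, per the labels, were cutadapt 1.8, STAR 2.7, HTSeq 0.9.1 and RSEM 1.2.31. Rows that name no gene, 5 in number, held 12.74 to 15.23% of the counts and were left out. The deposited TPM were not used, since their header does not match their columns.

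Counts were tested with edgeR 4.0.16 in R 4.3.3 (TMM, filterByExpr by group, quasi-likelihood test, 1 model over 24 libraries, Benjamini-Hochberg over 13679 genes). The test was checked on simulated counts for the naive and IL-4/IL-13 libraries only, with no mouse effect. The model over 24 libraries was not simulated. Rose and fell mean an adjusted p under 0.05, and 2.5-fold, the authors' threshold, is a second call. TPM were computed from the counts and canonical transcript lengths of GENCODE vM39, in which 56323 of 56884 identifiers were found. Promoters came from RefSeq windows. Named list genes were among the 3 largest changes per list and comparison with a mean of at least 50 counts, the largest included wherever a list's genes are named for a comparison, or direct relatives of the members. Overlaps with other genes were checked for the members only.

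Members and lists were chosen with earlier results of these data known. Replicates differed by more than sampling noise (chi-square per gene 2.19 to 35.9), and intervals cover the spread between mice. The number in a title names the mouse, so equal numbers pair libraries. Deviations from group means correlated within a mouse with a median of 0.24 (56 of 60 pairs above 0.1), against -0.05 for different mice. The study states no block, so the mouse was an alternative, beside DESeq2 1.42.0, upper-quartile and RLE normalization, no filter, at least 10 counts in every library, only the groups compared, *Hspa1a* and *Hspa1b* summed, raw library totals, and leaving out each mouse or library. The labels give M-CSF in µg/ml and the study in ng/ml.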

Additional observations from a re-analysis of the deposited data

Results flagged for a closer look

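*Hsph1* in the naive library of mouse 4 stood at 43.9 CPM, apart from the other 3 naive libraries, which had 38.3 to 39.1 CPM. The gap was 0.853 of the range of the group, above Dixon's 95% limit for 4 samples. Of the 54 sets of 4 libraries tested in this way, 1 for each gene and group, this was the only one past the limit, and chance passes about 1 in 20. The rise of *Hsph1* with IL-4/IL-13 passed the test in every alternative, those without this library included.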

How the results depend on the processing

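Of 1557 fold changes of members recomputed under the alternatives, 1499 kept their call, 38 lost it, 20 gained one and none reversed. The count of members that fell with IL-4/IL-13 was 1 with upper-quartile normalization. The count that rose with Sal003 was 1 with upper-quartile or RLE normalization, no filter, at least 10 counts in every library or only the groups compared, and 1 to 2 when a mouse or library was left out. The count higher in set A than in set B was 2 with upper-quartile normalization, 1 with the replicate block, 1 with only the groups compared and 0 to 1 with a mouse or library left out. The count that rose with tunicamycin was 0 to 1 with a mouse or library left out. The causes were not tested. The replicate block changed 3 calls of the members, those of *Hsph1* between the oligomycin sets (adjusted p = 0.0438), *Dnajb1* in tunicamycin against naive (adjusted p = 0.0514) and *Hsf1* in tunicamycin against Sal003 (adjusted p = 0.0442), and no other. Upper-quartile normalization moved the median of all genes to -0.12 in tunicamycin against naive. Without TMM, 21 of 54 levels moved by more than 1 SD. Depth limits *Hspa1a* and *Hspa1b* most, at 19 to 31 counts per tunicamycin library.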
